A study of Mus with 7 samples.

Results

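Within a single library of cultured macrophages given LPS for 4 h, very many mRNAs of Il1b, the gene of the secreted cytokine interleukin-1 beta (IL-1β), were captured from some cells and none from others. The Veh.LPS.4 library was ranked by this mRNA: each cell's Il1b UMIs (unique molecular identifiers, each standing for 1 captured mRNA molecule) were divided by all UMIs of the cell, and the cells were cut by rank into 4 groups of equal size. The top group (Il1b-high, 248 cells) was set against the bottom group (Il1b-low, 248 cells), with a lower middle and an upper middle group between them. These 496 cells came from the 993 cells of the library that had over 20000 UMIs, at least 2000 genes and under 20% mitochondrial UMIs, out of 11640 such cells in the 7 libraries of the series. The cells were chosen by their Il1b level, whose own difference is therefore no finding, and every other gene is described between cells of the same library, with no test.

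The cells are fetal liver-derived macrophages (FLMs), a self-renewing culture grown from livers of C57BL/6J mouse fetuses in GM-CSF. In the Veh.LPS.4 condition they were kept for 24 h in 0.25% FBS with 8.3 µM BSA as the vehicle and were then given 20 ng/mL of Salmonella LPS for 4 h. DHA.LPS.4 differed by 25 µM docosahexaenoic acid (DHA, an omega-3 fatty acid) on the same BSA, the 0 h and 1 h conditions (Veh.LPS.0, DHA.LPS.0, Veh.LPS.1 and DHA.LPS.1) by the time in LPS, and Con by complete medium without BSA, DHA or LPS. Each condition was 1 library, so no difference here has a replicate check, and cells of 1 library are not replicates of a condition. Intervals in parentheses are 95% exact binomial intervals and cover the counting error of UMIs or cells only.

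LPS binds the TLR4 complex at the macrophage surface and switches on NF-κB and MAP kinase signalling, which start the transcription of Il1b, Tnf and many chemokine genes. IL-1β is made as an inactive precursor that caspase-1 cuts in a multiprotein assembly, the inflammasome, whereas its neighbour in the genome, IL-1α, is active without that step. Not every macrophage in a dish makes Il1b mRNA at a given moment, and the mRNA itself is short-lived under the control of RNA-binding proteins.

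Il1b mRNA was not detected without LPS. It had 0 UMIs in 2908 cells of Con, which allows a share of cells with a UMI of up to 0.103%, and 0 UMIs in 2481 cells of Veh.LPS.0, which allows up to 0.121%. After 1 h in LPS, 5.27% (4.51 to 6.12) of the Veh.LPS.1 cells had an Il1b UMI. After 4 h the share was 84.0% (81.6 to 86.2) in Veh.LPS.4 and 73.7% (70.3 to 76.9) in DHA.LPS.4, whose cells were shallower with a median of 29631 UMIs against 56239. Free RNA can give UMIs to cells that do not express a gene, and no cell type that should lack Il1b was present to give a background share. The filter kept 993 of 2443 barcodes of Veh.LPS.4 and 692 of 5722 of DHA.LPS.4, and any pair of libraries shared between 0 and 4 kept barcodes.

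The Il1b-high cells held 87.8% of all Il1b UMIs of Veh.LPS.4 and the Il1b-low cells 0.198%. From the low to the high group, Il1b stood at 6.31, 43.4, 323 and 2760 CPM (UMIs of the gene per 1000000 UMIs summed over the cells of a group). In the Il1b-low group 159 cells had no Il1b UMI and no cell had more than 3, while Il1b-high cells had 20 to 1139 with a median of 115.5. The ranking had no gap at either limit. The last cell inside the Il1b-high group had 766 Il1b UMIs per 1000000 and the first outside 762, and the first cell inside the Il1b-low group had 19.867 against 19.902 just outside.

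**Figure D1:**
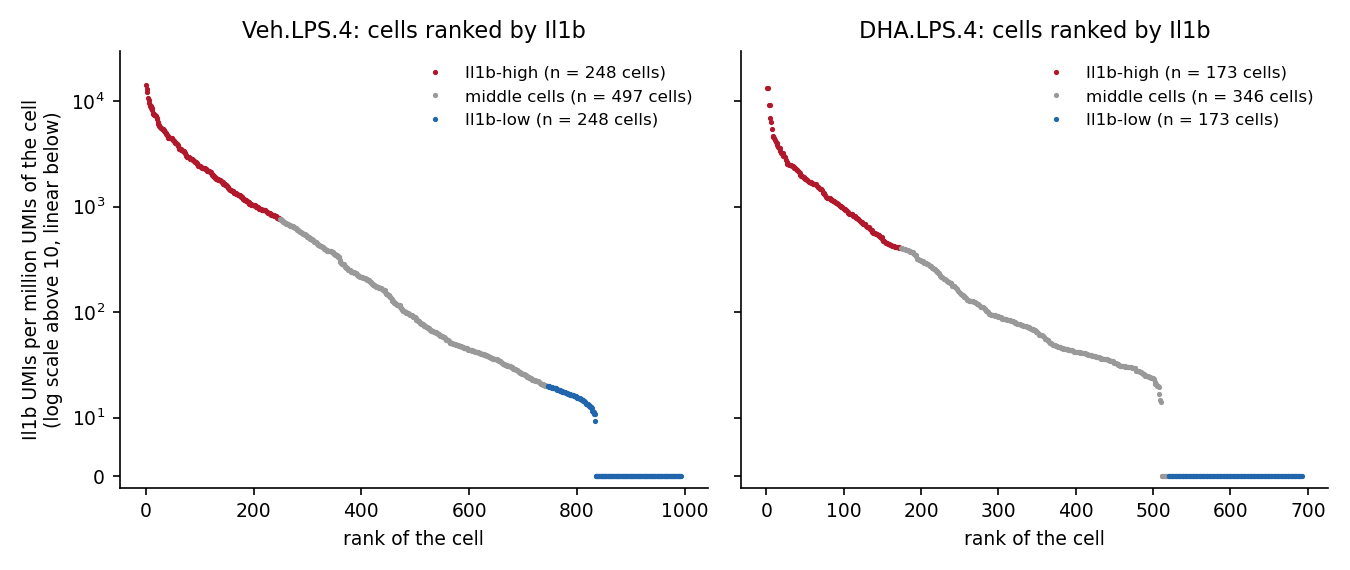
Cells of Veh.LPS.4 (left, 993 cells) and DHA.LPS.4 (right, 692 cells) ranked from high to low by Il1b UMIs per 1000000 UMIs of the cell (vertical axis, log scale above 10 and linear below). Each point is 1 cell; red is the Il1b-high group, blue the Il1b-low group and grey the middle cells, and the curve falls without a step until the cells at 0.

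Il1b-high and Il1b-low cells were alike in most measures of the cells themselves. The median was 57046.5 UMIs per cell in Il1b-high and 57087.5 in Il1b-low cells, and the median mitochondrial share was 6.61% against 6.77%. With every cell thinned to 20000 UMIs, a median of 3624 genes was found in Il1b-high cells, against 3759 in the upper middle group, 3777 in the lower middle group and 3804 in Il1b-low cells. A call of S or G2/M phase, from 43 S and 54 G2/M genes, was given to 13.7% (9.68 to 18.6) of the Il1b-high cells and 18.1% (13.6 to 23.5) of the Il1b-low cells, with overlapping intervals. The share was 19.3% (14.6 to 24.7) in the lower middle group and 24.6% (19.4 to 30.4) in the upper middle group, whose interval lay above that of Il1b-high cells. The part of cell cycle in the ratios below was not tested beyond the comparison of cells called G1.

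Both groups were macrophages by their markers. All 9 macrophage identity genes were found, at least 3 of them in 993 of 993 cells, and their summed level was 6899 CPM in Il1b-high and 7101 CPM in Il1b-low cells. The 8 mast cell and basophil markers had 0 UMIs in both groups. Neutrophil markers summed to 4.40 CPM in Il1b-high and 2.47 CPM in Il1b-low cells, with 6 of the 10 at 0 in the library and 3 markers together in 2 Il1b-high cells only. Hepatocyte markers, nearly all of them Afp, summed to 5.62 against 11.9 CPM. The part of these low levels in the results was not tested.

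Across the other genes, 158 of 7911 genes tested (2.0%) were over 1.5-fold higher in Il1b-high cells and 639 (8.08%) over 1.5-fold lower. A gene was tested when at least 25% of the cells of either group had a UMI of it, and both limits are of size alone. A gene rare in 1 group could enter through the other alone, so the limit itself favours large ratios among rare genes. Tslp, Itgax, Itgal, Rhob and Il1bos entered through the Il1b-high group only, and Serpinb9, P2rx7 and Fos through the Il1b-low group only. Other genes of few UMIs may have entered in the same way. Past 2-fold there were 48 higher and 125 lower genes. The median log2 ratio over all tested genes was -0.13, with the middle 50% of genes between -0.32 and 0.02, and 71.9% of the tested genes were below 1, so the typical gene took a slightly smaller share of the UMIs in Il1b-high cells. That lean depends on the scaling: with TMM factors, which centre the median at 0.00, 242 genes were higher and 372 lower, and with median-of-ratios size factors, at 0.03, 257 and 333. Higher genes were 19.8% of the genes past the limits by total UMIs, 39.4% with TMM and 43.6% with size factors.

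The middle cells were compared as well. Of the 158 higher genes, 144 also stood higher in the upper than in the lower middle group, which the choice of genes did not use, against 41.3% of all tested genes. Of the 639 lower genes, 563 were lower in the upper than in the lower middle group, against 58.7% of all tested genes. The middle groups were cut from the same library by the same Il1b ranking, so this continues the description and is not a test of it.

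**Figure D2:**
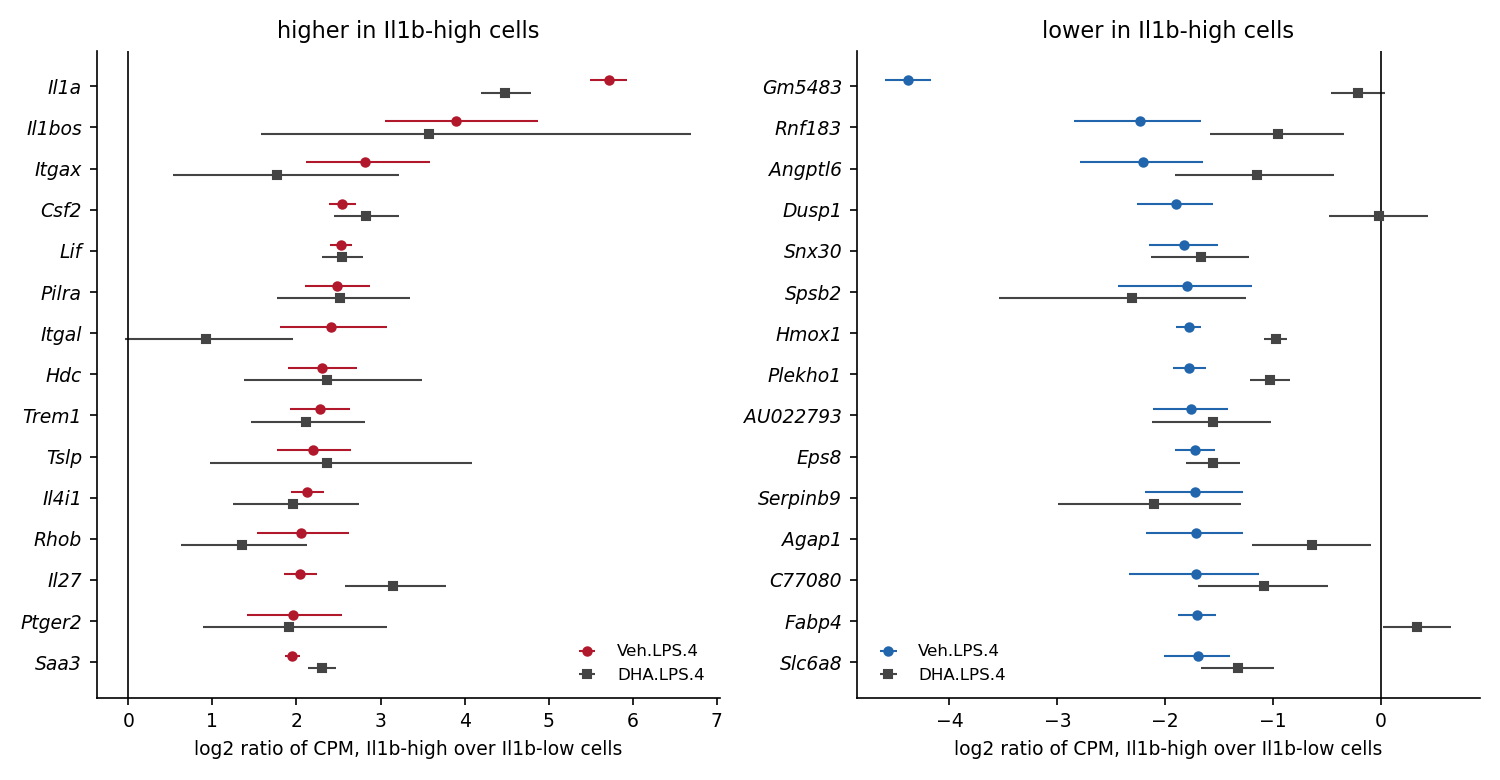
The 15 genes with the highest (left) and the 15 with the lowest (right) ratio among those past the limits with at least 50 UMIs; the horizontal axis is the log2 ratio of CPM in Il1b-high over Il1b-low cells with its 95% counting interval. Circles are Veh.LPS.4 and squares the same ranking in DHA.LPS.4; Il1a stands apart at 5.71 and 4.48, and Gm5483, Dusp1 and Fabp4 are near 0 or above it in DHA.LPS.4.

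Il1a, which encodes IL-1α, differed most. Its level from the low to the high group was 12.1, 21.4, 89.8 and 632 CPM, a 52.4-fold difference (45.1 to 61.2). By deciles of the ranking, Il1a was at 1118 CPM in the top decile, at 351, 197, 94.3 and 65.8 CPM in the next ones and at 12.4 CPM in the lowest. Of the Il1a UMIs at equal depth, 83.2% lay in Il1b-high cells and 1.88% in Il1b-low cells. The UMIs were spread over many cells, and the Il1b-high cell with the most Il1a held 3.39% of the group's Il1a UMIs.

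Il1a and Il1b are neighbours on chromosome 2 (mm10, GRCm38), Il1a at chr2:129299609-129310186 and Il1b at chr2:129364569-129371164. Il1bos, an RNA read antisense to Il1b at chr2:129369902-129375733, was at 0.823 CPM in Il1b-low and 12.3 CPM in Il1b-high cells, a log2 ratio of 3.90 (3.06 to 4.88). It passed the limit on cells through the Il1b-high group only, with 27.0% of cells against 4.03%. It overlaps Il1b, so its reads and those of Il1b may not be fully told apart and its value is uncertain. Within 1000 kb on either side of Il1b, the only other gene past the limits was Ckap2l, a mitotic spindle gene next to Il1a at chr2:129268210-129297228, with 10.5 CPM in Il1b-low and 16.7 CPM in Il1b-high cells (log2 0.67, 0.38 to 0.97). Its log2 ratio was within the limits without the 10% of cells with the most UMIs (0.32), between deciles (0.44) and in thinned cells (0.54), and it was 1.78 in G1 cells, where it was found in too few cells to be tested. All other tested genes of this window were inside the limits, from Stk35 at a log2 ratio of -0.36 to Polr1b at 0.28.

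The IL-1 family did not move as 1 block. Of 19 measured members, the inflammasome genes included, 4 were past the limits upward and 2 downward, with a median log2 ratio of 0.18 beside -0.13 over all tested genes. Of the 19, 6 were found in too few cells to be tested. Over all tested genes 2.0% were past the limits upward and 8.08% downward. Between the top and bottom deciles the median of the family was -0.05, and without the filter on barcodes it was -0.02. A member of a list counts as measured with at least 10 UMIs over both groups, and only those found in 25% of the cells of a group can be past the limits. Il1f6, which encodes the family cytokine IL-36α, went from 37.2 through 50.6 and 73.2 to 93.0 CPM (2.50-fold, 2.26 to 2.76). Its neighbour Il1f9 (IL-36γ) was at 4.04 against 7.52 CPM but was found in too few cells to be tested. Il18, a cytokine that caspase-1 also cuts, was at 26.9 against 36.2 CPM (log2 0.42, 0.23 to 0.62), inside the limits. Il1rn, the secreted antagonist of the IL-1 receptor, was nearly level at 855, 879, 920 and 994 CPM (log2 0.22, 0.18 to 0.25) and had UMIs in 100% of the cells of both groups. Il33 had too few UMIs for a reading, 0.823 against 0.203 CPM.

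On the receptor side, Il1rap, the shared accessory chain of IL-1 family receptors, stood at 7.88 and 12.7 CPM (log2 0.69, 0.35 to 1.04). Il1rl1, the IL-33 receptor, was also past the limits at 50.7 and 77.3 CPM. Il1r1, the signalling IL-1 receptor, had at most 1 UMI in any group of Veh.LPS.4, and the decoy receptor Il1r2 had 0 in both Il1b-high and Il1b-low cells. The receptor that reads IL-1 was thus at or near the limit of detection in these macrophages.

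Among the inflammasome genes, the sensor Nlrp3 was higher in Il1b-high cells at 352, 390, 477 and 549 CPM (log2 0.64, 0.59 to 0.69). Casp1, the protease that cuts the IL-1β precursor, was lower at 34.8, 28.1, 24.0 and 21.4 CPM (log2 -0.70, -0.91 to -0.49), but was within the limits with TMM factors (-0.56) or size factors (-0.54). P2rx7, an ATP-gated channel that triggers NLRP3, was at 6.51 against 3.79 CPM (log2 -0.78, -1.28 to -0.29) and within the limits when groups were taken inside bins of depth (-0.43). Gsdmd, whose product forms the pore through which IL-1β leaves, was at 30.6 against 27.4 CPM, and the DNA sensor Aim2 at 56.1 against 65.3 CPM, both within the limits. Pycard, the adaptor of the assembly, was close to 0 in both groups with 0.343 and 0.339 CPM.

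Other cytokine genes stood higher with Il1b as a group. Of 16 measured members of the list of other cytokines and growth factors, 15 were above 1 and 8 were past the limits upward, none downward, with a median log2 ratio of 0.80. Over all tested genes 28.1% were above 1 and 2.0% past the limits upward. Csf2, the gene of GM-CSF, on which these cells depend in culture, was at 27.1, 42.4, 92.1 and 159 CPM (5.84-fold, 5.25 to 6.52). Lif, a cytokine of the IL-6 family, was at 39.4, 57.4, 114 and 228 CPM (5.78-fold, 5.29 to 6.32). Il27, the p28 chain of IL-27, was at 17.9, 22.4, 38.3 and 73.7 CPM (4.12-fold, 3.60 to 4.73), while its partner chain Ebi3 hardly differed at 114 and 127 CPM.

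Il23a, the p19 chain of IL-23, stood out in the top group only, with 10.1, 14.3, 8.36 and 29.0 CPM (2.88-fold, 2.38 to 3.49), and 1 cell held 18.2% of its UMIs there. Csf3, which encodes G-CSF, was at 1019, 1136, 1926 and 2362 CPM (2.32-fold, 2.27 to 2.36). Il6 was at 32.8 and 59.0 CPM and Osm at 27.4 and 49.4 CPM, both with a log2 ratio near 0.84 and both past the limits. Tnf, the gene of an early cytokine of the LPS response, was only just past them at 2026, 1670, 2325 and 3088 CPM (1.52-fold) and was inside them with each cell weighted equally (log2 0.56). Tslp, an alarmin best known from epithelia, was low but 4.57-fold higher (3.40 to 6.26) at 3.70 and 16.9 CPM. It passed the limit on cells through the Il1b-high group only. Il12b and Il10 had too few UMIs to be read, under 1 CPM in every group.

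**Figure D3:**
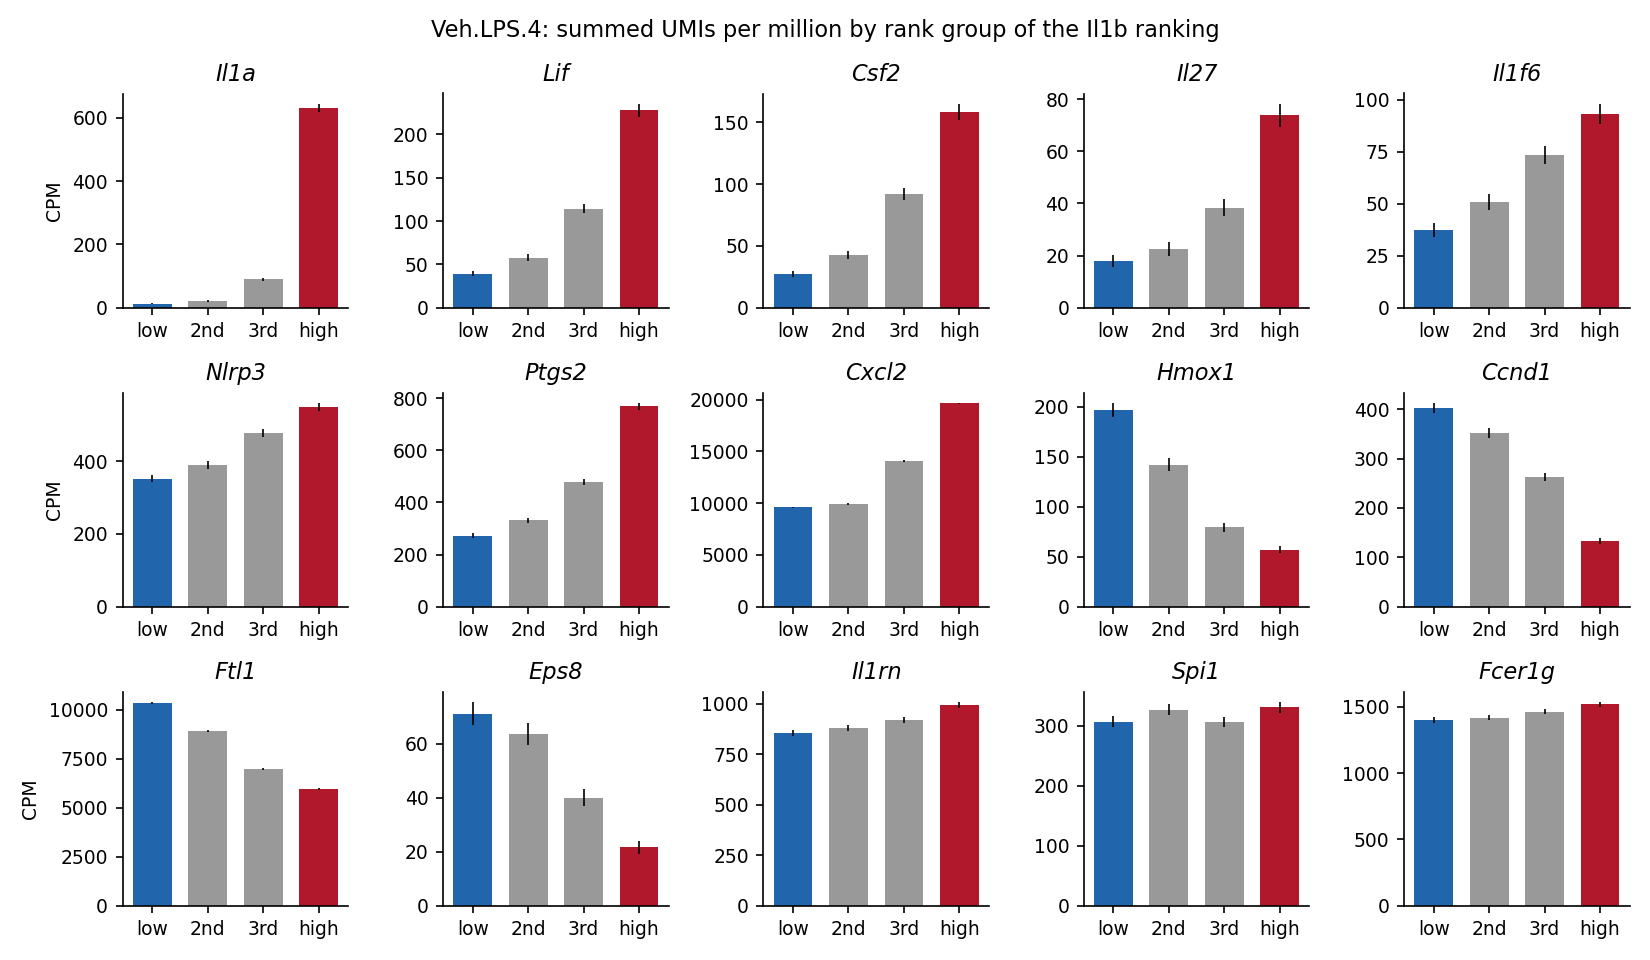
Levels of 15 genes in the 4 groups of the Veh.LPS.4 ranking, from Il1b-low (blue) through the middle groups (grey) to Il1b-high (red); bars are summed UMIs per 1000000 (CPM) and start at 0, and error bars are 95% counting intervals. Il1a, Lif, Csf2 and Il27 climb most from the low to the high group, Hmox1, Ccnd1, Ftl1 and Eps8 fall, and Spi1 and Fcer1g hardly move.

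Il1a, Lif, Csf2 and Il27, taken from the genes with high ratios, were also counted cell by cell. At equal depth (20000 UMIs per cell), an Il1a UMI was found in 86.3% (81.4 to 90.3) of the Il1b-high and 17.7% (13.2 to 23.1) of the Il1b-low cells, and a Lif UMI in 78.2% (72.6 to 83.2) against 30.6% (25.0 to 36.8). For Csf2 the shares were 42.3% (36.1 to 48.8) and 17.3% (12.8 to 22.6). For Il27 they were 59.7% (53.3 to 65.8) and 23.8% (18.6 to 29.6). Of Il1a, Lif, Csf2 and Il27, at least 3 were found together in 148 of 248 Il1b-high cells, 67 of 248 cells of the upper middle group, 20 of 249 of the lower middle group and 17 of 248 Il1b-low cells. None of the 4 was found in 5 Il1b-high and 102 Il1b-low cells. These counts were not set against the shares of the single mRNAs, so they do not show that the 4 go together within a group.

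The CC chemokine genes, whose products call in monocytes and lymphocytes, had the highest median of any list, 1.07 on the log2 scale over 10 measured genes. Of these, 5 were past the limits upward, against 2.0% of all tested genes. Ccl3, the gene of MIP-1α, was at 8742, 9051, 14660 and 17454 CPM, with an interval of 1.98 to 2.01-fold. By deciles its level stepped near the middle of the ranking, with 13815 CPM just above the midpoint and 8922 CPM just below it. Ccl4 and Ccl2, also among the most abundant mRNAs of these cells, were within the limits with log2 ratios of 0.53 and 0.41, and Ccl7 was on the other side of 0 at -0.36 (-0.40 to -0.33). The other 4 genes past the limits, named here after their values were seen, were Ccl22 (5.83 and 18.5 CPM), Ccl6 (21.8 and 58.3 CPM), Ccl12 (11.3 and 25.9 CPM) and Ccl5 (148 and 328 CPM). Ccl5 was higher in the top group alone, with 148, 161 and 123 CPM in the lower ones. It was found in under 50% of the Il1b-high and of the Il1b-low cells. CC chemokine genes have close relatives, and reads shared between them are uncertain.

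Of the CXC chemokines, Cxcl2, which recruits neutrophils, was at 9591, 9909, 14056 and 19621 CPM (2.05-fold, 2.03 to 2.06). Cxcl3, its close copy and therefore uncertain, went from 0.480 to 10.4 CPM but was found in 8.87% of the Il1b-high cells at most and was not tested. Cxcl16 was 1.92-fold higher (1.73 to 2.13). Cxcl10, a target of interferon, had no settled direction. It was at 59.2 against 47.3 CPM (log2 -0.32, -0.47 to -0.18), but its log2 ratio ran from -1.72 between deciles to 0.85 without the filter on barcodes, and 1 cell held 26.2% of its UMIs in the Il1b-high group.

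Genes of the NF-κB pathway itself were mostly slightly above 1. Of 18 genes for NF-κB subunits and inhibitors, 14 were above 1 and 3 past the limits upward, with a median log2 ratio of 0.31. The shares over all tested genes were 28.1% and 2.0%, with a median of -0.13. Nfkbiz, an inducible nuclear partner of NF-κB needed for part of its secondary targets, was at 133, 145, 184 and 276 CPM (2.07-fold, 1.96 to 2.19). Nfkb2 was at 60.6 and 113 CPM and Rel at 101 and 164 CPM. Nfkb1 was inside the limits at 259 and 366 CPM (log2 0.50), and Rela, the main activating subunit, was level at 28.9 and 28.6 CPM. With TMM or size factors 5 of the 18 were past the limits upward.

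The TLR4 complex and its adaptors had a median log2 ratio of -0.05 over 14 genes, which turned to 0.09 with TMM and 0.11 with size factors, and only Irak3, an inhibitor of this pathway, was past the limits (20.1 and 35.5 CPM, 1.77-fold, 1.53 to 2.05). Tlr4 itself was at 18.6 and 16.7 CPM and Myd88 at 36.9 and 42.4 CPM. Cd14, the co-receptor for LPS, was at 1779 and 2056 CPM (log2 0.21, 0.18 to 0.23). The transcription factors of the IL-1 list, among them Spi1 and Cebpb, had a median of -0.12, close to that of all genes, and none of the 14 was higher. With TMM or size factors that median was above 0 and 1 gene was higher.

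Feedback genes went both ways. Cish, a STAT5-induced inhibitor of cytokine receptors, was at 18.1, 25.6, 34.7 and 58.2 CPM (3.21-fold, 2.80 to 3.70). Zc3h12a, which encodes Regnase-1, an RNase that cuts cytokine mRNAs, was at 78.6 and 141 CPM (1.79-fold, 1.67 to 1.93). Zfp36, whose product tristetraprolin promotes decay of such mRNAs, was level at 123 and 117 CPM, but its relative Zfp36l2 was lower at 48.7 and 20.4 CPM (log2 -1.25, -1.45 to -1.05). Dusp1, a phosphatase that switches off MAP kinases, was 3.74-fold lower (2.94 to 4.79) at 22.0, 15.8, 11.4 and 5.89 CPM. Among 13 measured immediate-early genes, 3 were higher (Junb, Jund and Myc) and 2 lower (Fos and Jun), with Junb at 335 and 547 CPM and Fos at 8.36 and 3.66 CPM. Of the 13, 3 were found in too few cells to be tested. Over all tested genes 2.0% were higher and 8.08% lower. The counts of immediate-early genes depended on the setting, with 7 higher and 0 lower between deciles, 2 and 0 in thinned cells, and 0 and 0 between the top and bottom 50% of cells. Over all genes tested at these settings, 3.06% were higher and 17.2% lower between deciles, and 2.0% and 6.41% in thinned cells. Between the top and bottom 50% of cells the shares were 0.742% and 2.42%. Between deciles Fos (log2 -0.56) and Jun (-0.58) were within the limits. In thinned cells Jun was within them (-0.44), and Fos and Myc were found in too few cells to be tested.

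Enzymes of inflammatory metabolism differed by list. Of 9 measured itaconate, arginine and amino acid enzymes, 8 were above 1 and 3 past the limits upward, with a median of 0.57. Of 12 measured prostaglandin and leukotriene genes, 3 were above 1, with 1 past the limits upward, 2 downward and a median of -0.10. Over all tested genes 28.1% were above 1, 2.0% past the limits upward and 8.08% downward, with a median of -0.13. Ptgs2, the inducible cyclo-oxygenase that starts prostaglandin synthesis, was at 273, 332, 478 and 768 CPM (2.82-fold, 2.72 to 2.92). Hpgds, which makes prostaglandin D2, ran the other way at 66.4 and 32.6 CPM (2.03-fold lower, 1.82 to 2.27). Acod1, which makes itaconate, was at 635, 714, 966 and 1208 CPM (1.90-fold, 1.85 to 1.95). Il4i1, an amino acid oxidase, was at 17.8 and 77.7 CPM (4.38-fold, 3.82 to 5.03). Hdc, which makes histamine, was at 4.18 and 20.7 CPM (4.94-fold, 3.74 to 6.61), with no mast cell or basophil marker detected in either group. Under 25% of the Il1b-low cells had an Hdc UMI. Nos2 was past the limits at 7.06 and 18.3 CPM, and Odc1 was level at 5767 and 5641 CPM.

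At the cell surface, Trem1, a receptor that amplifies TLR signals, was at 5.42, 8.62, 12.1 and 26.2 CPM (4.84-fold, 3.79 to 6.24). Pilra, an inhibitory receptor, was 5.59-fold higher (4.30 to 7.36) at 4.59 and 25.7 CPM. The integrin genes Itgax (CD11c, 1.30 and 9.14 CPM) and Itgal (LFA-1, 1.78 and 9.48 CPM) were rare but had log2 ratios of 2.81 and 2.41, and 1 cell held 17.0% of the Itgax UMIs of the Il1b-high group. Cd40, a costimulatory receptor, was 2.60-fold higher (2.27 to 2.99), and Ptger2, a receptor of prostaglandin E2, 3.89-fold (2.67 to 5.82). Saa3, an acute-phase protein made by macrophages, was at 87.3, 118, 104 and 337 CPM (3.86-fold, 3.63 to 4.11). Rhob, a small GTPase, was at 2.47 and 10.3 CPM. Like Itgax and Itgal, it passed the limit on cells through the Il1b-high group only.

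On the other side of the ranking, the genes higher in Il1b-low cells included a block of antioxidant genes. Of 19 measured NRF2 targets, genes that the factor NRF2 switches on under oxidative or electrophilic stress, 18 were below 1 and 8 past the limits downward, none upward, with a median log2 ratio of -0.49. Over all tested genes 71.9% were below 1 and 8.08% past the limits downward, with a median of -0.13. With TMM or size factors 6 of the 19 remained past the limits. Hmox1, which degrades haem, was at 196, 142, 79.1 and 57.1 CPM from the low to the high group (3.44-fold lower in Il1b-high cells, 3.19 to 3.72). Srxn1, which repairs peroxiredoxins, was at 66.2 and 22.1 CPM, Gclm, a subunit of the enzyme that starts glutathione synthesis, at 116 and 53.8 CPM, and catalase (Cat) at 42.2 and 15.7 CPM. Sqstm1, the autophagy adaptor p62, was at 1177, 1013, 799 and 669 CPM. Ftl1, a ferritin chain with many related copies and so uncertain, was at 10369, 8915, 6980 and 5972 CPM (1.74-fold lower, 1.72 to 1.75). Slc7a11, the cystine carrier, was the exception above 1 at 262 and 281 CPM.

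Of 15 lysosomal enzymes, 14 were below 1 and 4 past the limits downward, with a median of -0.33, beside 71.9% below 1, 8.08% past the limits downward and a median of -0.13 over all tested genes. Ctsd, an aspartic protease, was at 762, 684, 601 and 435 CPM (1.75-fold lower, 1.70 to 1.81). Ctsb and Ctsl, cysteine proteases, were inside the limits with log2 ratios of -0.58 and -0.52. With TMM or size factors 2 of the 15 stayed past the limits.

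In the list of ER chaperones and the ATF4 response, 4 of 16 genes were past the limits downward, 6 were above 1 and the median was -0.32. Over all tested genes 8.08% were past the limits downward, with a median of -0.13. In thinned cells 1 gene of the list was past the limits downward. Pdia4, an ER folding enzyme, was at 92.8, 73.9, 49.8 and 45.7 CPM (2.03-fold lower, 1.85 to 2.23). Hspa5, the chaperone BiP, was at 2907, 2380, 1777 and 1860 CPM (log2 -0.64, -0.67 to -0.62), past the limits by total UMIs and inside them with TMM factors (-0.51), size factors (-0.49) or thinned cells (-0.40). Ddit3 was also lower at 88.9 and 48.2 CPM, whereas Chac1, a target of ATF4, was at 25.0 and 36.4 CPM.

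Ccnd1, which encodes cyclin D1, was 3.02-fold lower in Il1b-high cells (2.87 to 3.18) at 403, 352, 262 and 133 CPM, and 89.8 CPM in the top decile. Of the 8 proliferation genes none was past the limits and the median was -0.24, with Mki67 at 102 and 69.3 CPM and Ccnb2 at 35.5 and 42.1 CPM. Histone genes, which are near-identical copies and uncertain, had a median of -0.33. Between the top and bottom deciles, 6 proliferation genes and 4 histone genes were past the limits downward, with list medians of -0.86 and -0.97. Over all genes tested between deciles 17.2% were past the limits downward, with a median of -0.21. Among cells called G1 alone both medians were above 0, at 0.19 for proliferation and 0.32 for histones. Phase was called from cell cycle genes, so the choice of G1 cells itself bears on these 2 medians. The log2 ratio of Ccnd1 was -1.59 over all cells and -1.74 in G1 cells.

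The lowest ratios belonged mostly to genes outside these lists. Gm5483, a gene of the stefin family with close copies, was at 268, 112, 45.7 and 12.9 CPM, but 1 Il1b-low cell held 32.0% of the UMIs of its group. Eps8, an actin regulator, was at 71.0, 63.4, 40.0 and 21.5 CPM (3.30-fold lower, 2.91 to 3.75). Plekho1, a protein with a membrane-binding PH domain, was at 107, 86.7, 60.7 and 31.3 CPM (3.42-fold lower). Slc6a8, the creatine carrier, was at 25.9 and 7.99 CPM, Snx30, an endosomal sorting nexin, at 25.5 and 7.18 CPM, and Serpinb9, an inhibitor of granzyme B, at 12.3 and 3.72 CPM. The lipid-binding protein gene Fabp4 was at 75.6, 98.2, 42.8 and 23.2 CPM, with 1 cell holding 30.0% of its UMIs in Il1b-high cells. Rnf183, Angptl6, Spsb2, Agap1, C77080 and AU022793 were below 25 CPM in both groups, with log2 ratios from -2.23 to -1.72.

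**Figure D4:**
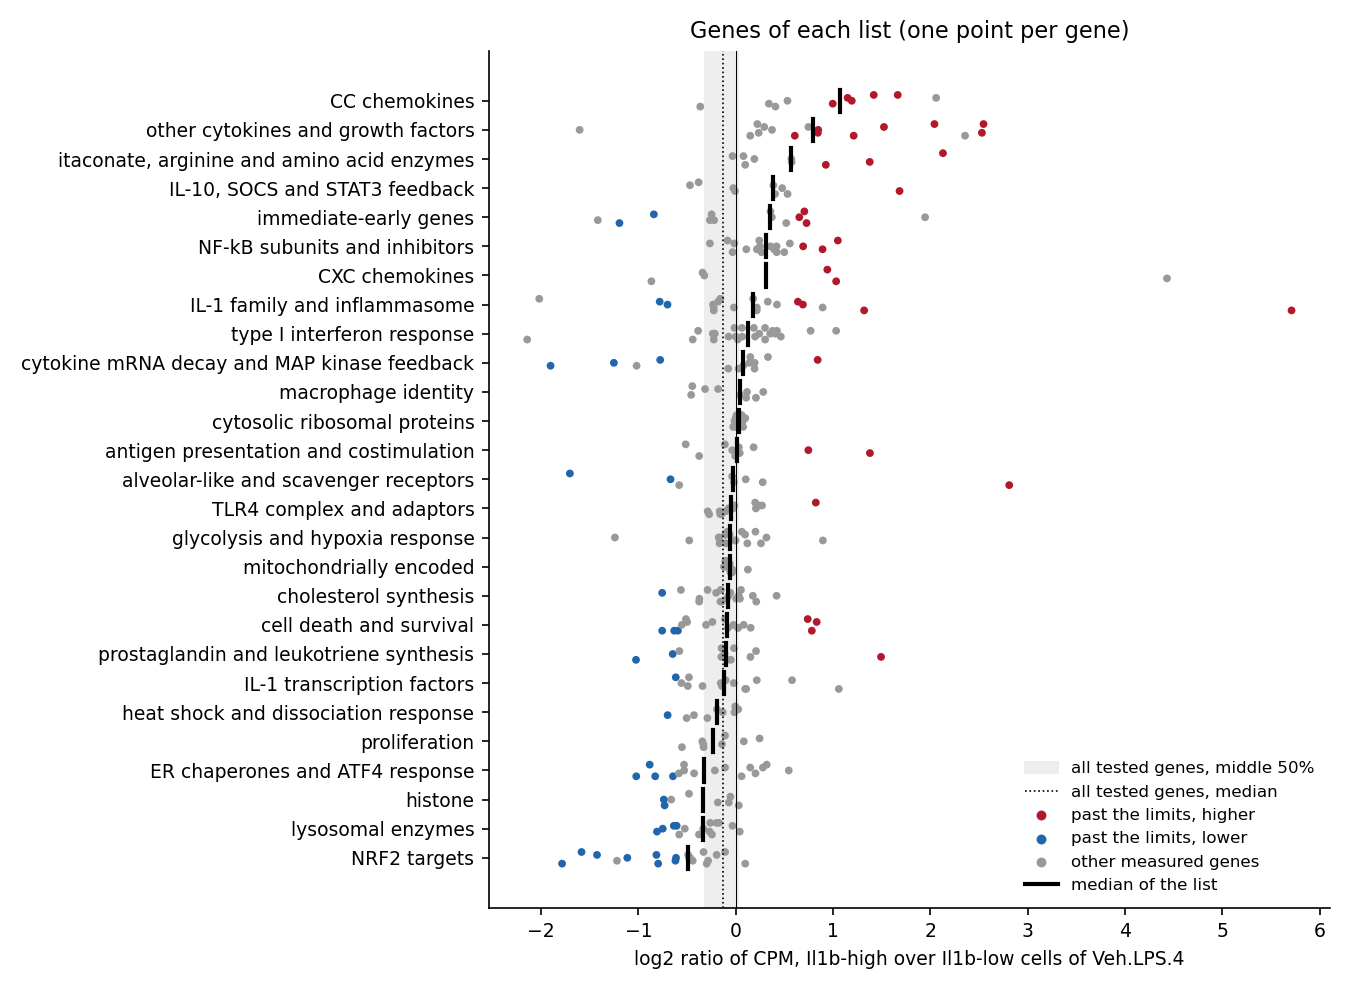
Log2 ratio of CPM in Il1b-high over Il1b-low cells of Veh.LPS.4 for the genes of 27 lists, 1 point per measured gene; red and blue points are past the limits, the black bar is the median of the list, and the grey band holds the middle 50% of all tested genes around their median of -0.13. The medians of the cytokine and chemokine lists lie to the right of the band and that of NRF2 targets to its left, with those of lysosomal enzymes and ER chaperones close to its left edge.

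Macrophage identity and housekeeping genes differed little. The 9 macrophage identity genes had a median log2 ratio of 0.04 and none past the limits, from Adgre1 at 0.28 to Csf1r at -0.46. Spi1, the lineage factor PU.1, was at 307, 327, 306 and 331 CPM. The 22 ribosomal protein genes had a median of 0.03, the 13 mitochondrially encoded genes -0.06, glycolysis genes -0.06 and cholesterol synthesis genes -0.08, with the last 3 medians on the other side of 0 under TMM and size factors. Of these lists only Dhcr7, an enzyme of cholesterol synthesis, was past the limits, at 7.20 and 4.27 CPM. The Bcl2a1 survival genes Bcl2a1a, Bcl2a1b and Bcl2a1d were 1.67 to 1.78-fold higher, but they are near-identical copies and their split of reads is uncertain.

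The genes of other lists past the limits are given beside 2.0% upward and 8.08% downward over all tested genes. Antigen presentation and costimulation genes had a median of 0.01 over 10 measured genes, with Cd40 and Cd80 higher and Cd74 level at 1067 and 1063 CPM. Among 18 genes of cell death and survival, 3 were higher and 3 lower, Bbc3 (PUMA) lower at 45.9 and 27.2 CPM, and only 1 of the 3 stayed lower under TMM or size factors. Of 9 measured heat shock genes only Bag3 was past the limits, lower at 14.4 and 8.87 CPM but inside them under TMM and size factors. Of 8 measured alveolar-like and scavenger receptor genes 1 was higher and 2 were lower, with a median of -0.03, above 0 under TMM and size factors. Marco, a scavenger receptor of alveolar macrophages, had 0 UMIs in every group. Summed levels of the erythroid, stromal and endothelial, dendritic cell and lymphoid marker lists were below 2 CPM in both groups.

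No gene of the type I interferon response list was past the limits in Veh.LPS.4. Of its 24 measured genes 16 were above 1, with a median log2 ratio of 0.13, and 10 were found in too few cells to be tested. Over all tested genes 28.1% were above 1, 2.0% past the limits upward and 8.08% downward, with a median of -0.13. Between deciles 3 genes of the list were past the limits downward and 0 upward, beside 17.2% and 3.06% of all genes tested there. With only the Il1b-low cells without an Il1b UMI the median of the list was -0.02. The median interferon UMIs per cell at equal depth were 9, 8, 8 and 9 from the low to the high group. Isg15 was at 45.8 and 56.5 CPM and Oasl1 at 151 and 158 CPM. In DHA.LPS.4, ranked in the same way, all 20 measured genes of the list were below 1 and 5 past the limits downward, with a median of -0.90. Of the 20, 11 were found in too few cells to be tested. Over all genes tested there, 67.5% were below 1 and 7.51% past the limits downward, with a median of -0.12. In DHA.LPS.4 Isg15 was at 30.3 CPM in Il1b-low and 17.0 CPM in Il1b-high cells (log2 -0.83, -1.22 to -0.46). The mean interferon UMIs per cell were 8.53, 7.03, 4.51 and 4.61 there, and the medians 4, 3, 2 and 2. The difference between the libraries was not tested.

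The same ranking in DHA.LPS.4, which the choice of these cells did not use, gave 173 Il1b-high cells at 1689 CPM of Il1b and 173 Il1b-low cells with 0 Il1b UMIs. Of 6791 genes tested there, 152 (2.24%) were higher and 510 (7.51%) lower. Of the 158 genes higher in Veh.LPS.4, 126 were tested in DHA.LPS.4, where 82 were higher, 0 lower and 120 above 1. Of the 639 lower genes 416 were tested, of which 220 were lower, 0 higher and 404 below 1. Over all 6783 genes tested in both libraries, 32.5% were above 1 and 67.5% below 1 in DHA.LPS.4. The 82 shared higher genes are 51.9% of the Veh.LPS.4 and 53.9% of the DHA.LPS.4 genes, and the 220 shared lower genes 34.4% and 43.1%. The 2 libraries were ranked by the same mRNA, so this is a repeat of the description in other cells and not a test of it.

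The leading genes are given side by side for DHA.LPS.4. In DHA.LPS.4, Il1a was at 19.1 and 428 CPM (log2 4.48, 4.19 to 4.79), Lif at 30.7 and 179 CPM, Csf2 at 12.2 and 86.1 CPM and Il27 at 5.21 and 46.2 CPM. Ptgs2 was at 163 and 704 CPM, a log2 ratio of 2.11 (2.01 to 2.22) against 1.49 in Veh.LPS.4, and Tnf at 1232 and 2762 CPM, 1.17 (1.12 to 1.21) against 0.61. Hmox1 was at 394 and 201 CPM, lower by 0.98 on the log2 scale where Veh.LPS.4 gave 1.78, and Ccnd1 at 464 and 227 CPM. Dusp1 was level there at 15.4 and 15.2 CPM. At least 3 of Il1a, Lif, Csf2 and Il27 were found at equal depth in 85 of 173 Il1b-high and 6 of 173 Il1b-low cells.

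Among genes past the limits in the same direction in both libraries were several regulators of inflammatory signalling. Malt1, a protease and scaffold that activates NF-κB, was at 345 and 694 CPM in Veh.LPS.4 and at 314 and 619 CPM in DHA.LPS.4. Jak2, the kinase of the GM-CSF receptor, was at 50.4 and 94.2 CPM, and at 54.1 and 96.4 CPM in DHA.LPS.4. Id3, an inhibitor of helix-loop-helix factors, was at 14.9, 21.1, 28.6 and 40.8 CPM, and at 9.08 and 35.4 CPM in DHA.LPS.4. The nuclear factor gene Hivep3 was at 138, 164, 217 and 319 CPM (2.31-fold, 2.19 to 2.43). Mir155hg, the host transcript of the microRNA miR-155, was at 23.0 and 43.6 CPM. These 5 genes were graded over the 4 groups.

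Secreted and surface proteins higher in both libraries included Lcn2, which binds bacterial siderophores, at 220 and 443 CPM in Veh.LPS.4 and 306 and 608 CPM in DHA.LPS.4. Pdgfb, a growth factor for mesenchymal cells, was at 193 and 392 CPM. Plaur, the urokinase receptor, was higher at 457 and 809 CPM, whereas Plau, urokinase itself, was lower in both libraries, at 81.0 and 31.6 CPM in Veh.LPS.4. Cx3cr1, the fractalkine receptor, was at 71.6 and 114 CPM.

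Lower in both libraries were Lat2, an adaptor of immune receptors, at 154, 128, 99.0 and 65.0 CPM (2.37-fold lower, 2.20 to 2.56), and Igf1, a growth factor, at 171, 156, 131 and 96.9 CPM. Neat1, a long non-coding RNA that builds nuclear paraspeckles, was at 558, 400, 313 and 290 CPM. C3ar1, the receptor of complement C3a, was at 130 and 63.2 CPM, and the scavenger receptor Cd36 at 51.9 and 32.6 CPM (inside the limits in Veh.LPS.4 under TMM and size factors). Keap1, the inhibitor of NRF2, was at 33.9 and 19.2 CPM, on the same side as the NRF2 targets. Rab7b, a GTPase of late endosomes, was at 20.2 and 6.97 CPM in Veh.LPS.4 and at 19.5 and 3.90 CPM in DHA.LPS.4. The ER proteins Creld2 and Sdf2l1 were 2.05-fold (1.86 to 2.25) and 1.95-fold (1.80 to 2.11) lower in Veh.LPS.4.

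**Figure D5:**
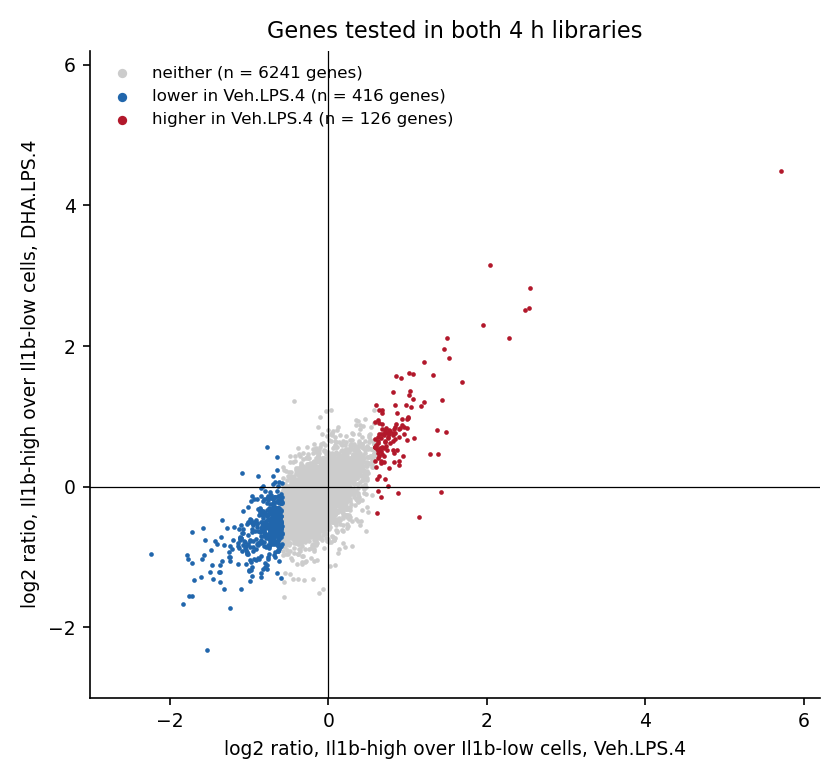
Log2 ratio of CPM in Il1b-high over Il1b-low cells for the 6783 genes tested in both libraries, Veh.LPS.4 on the horizontal and DHA.LPS.4 on the vertical axis; 1 gene, Gm5483, lies outside the axes. Red are the 126 genes higher and blue the 416 genes lower in Veh.LPS.4, of which 120 lie above and 404 below 0 in DHA.LPS.4. Over all 6783 genes 32.5% lie above and 67.5% below 0 there. Grey are all others.

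Most genes higher in Il1b-high cells were also higher after LPS than before it in other libraries. Between DHA.LPS.0 and DHA.LPS.4, which share no cell with the ranking of Veh.LPS.4, 128 of the 158 higher genes were over 1.5-fold higher at 4 h, against 11.7% of all tested genes. Of the 639 lower genes 380 were over 1.5-fold lower at 4 h, against 26.6% of all tested genes. At 1 h, 67 of the 158 were already over 1.5-fold above Veh.LPS.0 in vehicle, against 5.03% of all, and 58 of the 639 lower genes were below it, against 3.50%. Lif, for example, was at 0.0810, 0.751 and 111 CPM at 0, 1 and 4 h in vehicle. Hmox1, one of the lower genes, did not fall with LPS there but rose, at 71.0, 108 and 118 CPM. Before LPS, 21 of 151 higher genes stood over 1.5-fold higher with DHA than with vehicle (DHA.LPS.0 over Veh.LPS.0), against 1.24% of all tested genes, and 11 over 1.5-fold lower, against 0.911%. The median log2 ratio of the 151 was -0.09. Genes entered this comparison with at least 10 UMIs over the 2 libraries, and ratios of genes near 0 without LPS carry a large counting error. Its part in these counts was not tested.

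At 1 h in LPS, Il1b was found in few cells. In Veh.LPS.1, 137 cells with and 2936 cells without an Il1b UMI at equal depth were compared by the same limits. Of the 158 genes, 78 could be tested there, of which 13 were higher and 0 lower, against 0.670% of all tested genes higher. Of the lower genes, 414 could be tested, of which 15 were lower and 3 higher, against 0.623% of all tested genes lower. Il1a, under the limit on cells at 21.9% of cells with and 4.09% of cells without Il1b, was at 37.6 and 3.66 CPM (log2 3.36, 3.01 to 3.71). Il4i1 was at 15.3 and 4.02 CPM and Saa3 at 29.6 and 8.11 CPM. Cxcl2 and Tnf, already abundant at 1 h, differed by log2 ratios of 0.24 and 0.19. Hmox1 was at 65.3 and 110 CPM (log2 -0.76, -0.98 to -0.54).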

How the data were processed

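Cells of 7 libraries, 1 per condition, were profiled by droplet RNA sequencing. The authors made the deposited UMI counts per gene and barcode with Cell Ranger 3.1.0 against mm10, according to the submitters' notes; the files hold 31053 genes. Barcodes with over 20000 UMIs, at least 2000 genes and under 20% mitochondrial UMIs were kept, as in the study's methods, with no batch correction. No doublet caller was run, and free RNA was not removed.

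Counts were summed over the cells of each group, divided by all UMIs of the group and compared as ratios. Tests were not possible with 1 library per condition. Cells were also thinned to 20000 UMIs. Python 3.11.15, numpy 2.4.6, scipy 1.17.1, pandas 2.3.3 and scanpy 1.11.5 (phase calls) were used, with edgeR 4.0.16 and DESeq2 1.42.0 for alternative scaling factors only. The steps were tested on simulated data.

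Genes were named by a rule: the 15 highest and 15 lowest ratios with at least 50 UMIs, all IL-1 family members, the most abundant and extreme members of 34 lists, and genes past the limits in both 4 h libraries; other list members were named after their values were seen. The members and lists were chosen with earlier results of these data known. Coordinates came from RefSeq (GRCm38.p6). Alternatives covered scaling, depth, cell filters, phase and limits. Veh.LPS.4 held 58598526 UMIs over the kept cells.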

Additional observations from a re-analysis of the deposited data

Results flagged for a closer look

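Among the list members past the limits in Veh.LPS.4, 2 genes ran in the opposite direction in DHA.LPS.4, ranked by Il1b in the same way. Their counting intervals there excluded 0. Over all genes tested in both libraries, 6 of the 126 higher genes were below 1 in DHA.LPS.4 and 12 of the 416 lower genes above 1. In addition, 1 gene list was lower in DHA.LPS.4 with a median near 0 in Veh.LPS.4. There is 1 library per treatment, and the difference between the libraries was not tested. Intervals cover the counting error of UMIs only.

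Ccl5, the gene of the chemokine RANTES, had a log2 ratio of 1.15 (1.08 to 1.22) in Il1b-high over Il1b-low cells of Veh.LPS.4 and of -0.42 (-0.54 to -0.31) in DHA.LPS.4, where its level was 278 CPM in Il1b-low and 207 CPM in Il1b-high cells. In Veh.LPS.4 Ccl5 was found in under 50% of the Il1b-high and of the Il1b-low cells. Its log2 ratio there ran from 0.53 between the top and bottom 50% of cells to 2.14 between deciles. It was singled out after its values were seen.

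Fabp4, which encodes a fatty acid-binding protein, had a log2 ratio of -1.70 (-1.88 to -1.53) in Veh.LPS.4 and of 0.34 (0.02 to 0.65) in DHA.LPS.4, at 28.2 and 35.6 CPM. In Veh.LPS.4, 1 cell held 30.0% of its UMIs in the Il1b-high group.

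The type I interferon response list had a median log2 ratio of 0.13 in Veh.LPS.4, with the medians of its members' bounds at -0.17 and 0.35 and 0 genes past the limits, and of -0.90 in DHA.LPS.4. In Veh.LPS.4, 10 of its 24 measured genes were found in too few cells to be tested, and between deciles 3 were past the limits downward. Its summed level in DHA.LPS.4 was 420 CPM in Il1b-low and 239 CPM in Il1b-high cells, against 662 and 676 CPM in Veh.LPS.4.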

How the results depend on the processing

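No paired analysis was possible because each condition had 1 library. The counts of genes past the limits moved by over 1.5 times as follows, higher and lower in Il1b-high cells. In Veh.LPS.4, against 158 and 639, TMM factors gave 242 and 372, size factors 257 and 333, the top and bottom 50% of cells 58 and 189, deciles 239 and 1341, no limit on the share of cells 453 and 1717, and a 2-fold limit 48 and 125. Only the lower count moved with cells thinned to equal depth (362), no filter on barcodes (215) and a UMI in 50% of cells (287). In DHA.LPS.4, against 152 and 510, TMM factors gave 260 and 249, size factors 276 and 238, the top and bottom 50% of cells 52 and 121, deciles 321 and 887, over 40000 UMIs per cell 517 and 1802, no filter on barcodes 35 and 23, a UMI in 50% of cells 92 and 176, no limit on cells 434 and 1568, and 2-fold 36 and 75. Only the lower count moved with thinned cells (339) and only the higher with G1 cells (251). TMM and size factors kept all 158 higher genes of Veh.LPS.4 and 372 and 333 of the 639 lower ones. They moved the share of higher genes among those past the limits in DHA.LPS.4 from 23.0% to 51.1% and 53.7%. Deciles, G1 cells and the limit of over 40000 UMIs use fewer cells, and the other causes were not tested.

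Settings chosen after seeing the data were the Il1b-low cells without an Il1b UMI only, with 178 higher and 598 lower genes, ties of DHA.LPS.4 in reverse file order, with 158 and 547, and each gene without its top cell. In Veh.LPS.4, under every setting that gave a value, Il1a kept a log2 ratio between 4.42 and 6.50, Lif between 1.82 and 3.11, Hmox1 between -1.83 and -1.31 and Ccnd1 between -2.16 and -0.92, and the NRF2 list a median between -0.60 and -0.28. For DHA.LPS.4 the NRF2 median lay between -0.50 and -0.05, the latter with no filter on barcodes. In DHA.LPS.4 the Il1b-low group was a choice by file order among cells without an Il1b UMI. In Veh.LPS.4 this also held for the lowest decile, 99 of the 159 cells without an Il1b UMI. The low group of its thinned cells was such a choice too, since 69.2% of the thinned cells had an Il1b UMI. The shallower depth of DHA.LPS.4 limits genes of few UMIs.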
